A study of Mus musculus with 6 samples.

Results

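Genes of the bone morphogenetic protein (BMP) and transforming growth factor beta (TGF-β) pathway were followed in colon organoids kept with or without tumour necrosis factor alpha (TNF). The members were chosen by gene name: names that begin with Bmp, Gdf, Smad or Tgfb and a digit, or with Bmpr, Tgfbr, Acvr or Inhb, together with Id1 to Id4, Grem1, Nog, Chrd, Bambi, Bmper, Smurf1 and Smurf2. This gave 59 of the 29940 genes in the deposited table. By role they are 23 ligands, 5 antagonists, 12 receptors, 6 signal-carrying Smads, 4 inhibitory Smads and ubiquitin ligases and 4 Id target genes. The other 5 carry such a name but were put in none of these groups: the kinase gene Bmp2k, the protease gene Bmp1, Tgfbrap1, Tgfbr3l and Tgfb1i1. Of the 59, 29 averaged 1 FPKM or more across the 6 samples and were tested, and 30 lay under that level. FPKM counts sequenced fragments relative to the length of the transcript and the size of the library, so that levels of different genes can be set side by side.

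Large-intestinal crypts of inbred C57BL/6J mice were embedded in Matrigel, a basement membrane gel, where they formed organoids, hollow bodies of epithelium. After 2 days of culture they were kept for 24 hours either alone (Ctrl, 3 samples) or with TNF (TNF, 3 samples), an inflammatory cytokine. Neither the dose of TNF nor the age and number of the animals nor the culture medium is given in the sources used here. Media for intestinal organoids often hold recombinant noggin, a BMP antagonist that RNA sequencing does not see. Whether replicates are separate cultures or mice is not stated in the labels; the p-values therefore reflect no more than the spread among these 6 samples, and that spread may be technical.

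Ligands of this superfamily are secreted dimers that bring together type I and type II receptor kinases on the cell surface. Receptors for TGF-β and activins phosphorylate Smad2 and Smad3, receptors for BMPs phosphorylate Smad1, Smad5 and Smad9, and both groups of Smads enter the nucleus with Smad4. In the gut, BMP signalling rises from the crypt base towards the surface and restrains stem cells, while antagonists such as gremlin and noggin, made largely below the crypts, keep it low at the base. TGF-β restrains growth of the epithelium and acts on the repair of wounds.

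Sequencing depth, recovered from the lowest deposited values, was about 28100000 to 32200000 reads per library. Where reads came in pairs, each read of a pair was counted here and below, so fragments may be fewer than reads. The 7 epithelial markers examined (among them Epcam, Cdh1 and Cdx2) each exceeded 1 FPKM and summed to 2556 to 2788 FPKM in Ctrl and 2899 to 3109 FPKM in TNF. Of the 7, 3 had a higher mean in TNF than in Ctrl: Krt8 (1074 FPKM in Ctrl and 1304 FPKM in TNF), Krt19 (548 and 720 FPKM) and Cdh1 (263 and 287 FPKM). The means of Epcam (451 and 410 FPKM), Cdx2 (87.1 and 71.1 FPKM), Vil1 and Cdx1 were lower in TNF. Markers of other cells were low: 10 mesenchymal genes summed to 11.2 to 21.7 FPKM in Ctrl and 8.42 to 11.0 FPKM in TNF, and 5 endothelial genes to less than 1 FPKM in every sample. The 9 leukocyte genes summed to 18.9 to 35.0 FPKM in Ctrl and 26.8 to 44.7 FPKM in TNF, with Lyz2 lowest in Ctrl 1 (4.65 FPKM) and TNF 3 (2.72 FPKM) against 15.6 to 16.0 FPKM in the other samples. The 4 genes of enteric glia summed to 4.58 to 6.35 FPKM in Ctrl and 20.2 to 23.0 FPKM in TNF. As a check of the labels, the NF-κB feedback genes Nfkbia and Tnfaip3 rose with TNF, with log2 differences of 2.43 and 2.24 (limma adjusted p = 7.34e-07 and 2.92e-07).

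The ligand gene Bmp3 was 2.83-fold lower with TNF, Tgfb1 rose, and the receptor genes Tgfbr2 and Acvr2a moved in opposite directions. Of the 29 tested members, 5 rose (Tgfb1, Gdf11, Gdf15, Tgfbr2 and Smad5), 3 fell (Bmp3, Acvr2a and Acvr1c) and 21 did not pass, where a call is a limma adjusted p below 0.05 over all 12350 tested genes. The called share of the members, 27.6%, stood near the 24.0% of all tested genes that were called. Likewise 5 of 29 members rose where 12.9% of all tested genes did, and 3 of 29 fell where 11.1% did. The median difference of the members was 0.03 on the log2(FPKM + 1) scale, against -0.001 for all tested genes. The groups did not overlap for 15 of the 29, or 51.7%, against 41.4% of all tested genes. Without Ctrl 1 and TNF 3, which left 2 samples in each group, 5 of 29 members were called, and over all tested genes the calls fell to 1413 (11.4%).

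**Figure D1:**
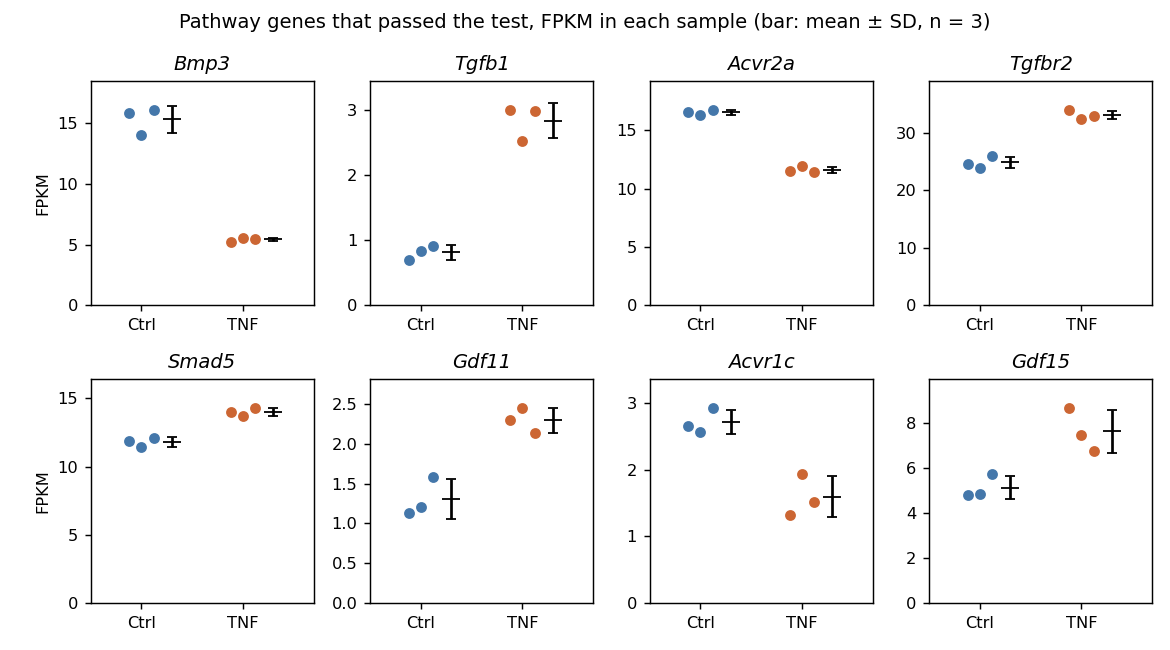
FPKM (vertical axes, from 0) of the 8 called pathway genes in each of 3 Ctrl (blue) and 3 TNF (orange) samples, with the mean ± SD beside the points. In every panel the 3 TNF points lie on one side of the 3 Ctrl points, as with Bmp3 at 14.0 to 16.1 FPKM in Ctrl and 5.25 to 5.56 FPKM in TNF.

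Among the ligands, Bmp3 had the largest fall. It encodes an atypical BMP that binds activin type II receptors and can oppose other BMPs. The gene (ENSMUSG00000029335, chromosome 5, 98854415 to 98884396 in GRCm38) stood at 15.9, 14.0 and 16.1 FPKM in Ctrl 1 to 3 and at 5.25, 5.56 and 5.46 FPKM in TNF 1 to 3. The groups were far apart: the highest TNF sample was below the lowest Ctrl sample. The means were 15.3 ± 1.13 and 5.42 ± 0.158 FPKM (SD, n = 3; the same holds for every mean ± SD that follows), with a log2 difference of -1.34 (SE 0.06, limma adjusted p = 8.18e-06). In Ctrl, Bmp3 made up 33.5% to 37.6% of the summed FPKM of all 23 ligand genes, and in TNF 11.8% to 14.4%. The sum over ligands itself was 42.8 ± 1.34 FPKM in Ctrl and 40.4 ± 3.44 FPKM in TNF. In whole organoids, fewer cells of a type and less RNA per cell cannot be told apart, and the 5 surface colonocyte markers (Krt20, Car1, Slc26a3, Aqp8 and Slc20a1), all lower in mean with TNF, summed to 1479 to 1816 FPKM in Ctrl and 947 to 981 FPKM in TNF. Their part in the fall of Bmp3 was not tested.

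Tgfb1, the TGF-β ligand made by epithelium and by many immune cells, had the largest rise. The gene (ENSMUSG00000002603, chromosome 7, 25687002 to 25705077) stood at 0.689, 0.836 and 0.910 FPKM in Ctrl 1 to 3 and 2.99, 2.52 and 2.98 FPKM in TNF 1 to 3, which stands for roughly 106 to 484 reads per sample. All 3 TNF samples were above all 3 Ctrl samples. The mean went from 0.812 ± 0.112 to 2.83 ± 0.268 FPKM, a 3.49-fold ratio of means (log2 difference 1.08, SE 0.09, limma adjusted p = 0.000151). The log2 value is the smaller because 1 is added before taking logs. Beside it, the pan-leukocyte gene Ptprc was at 0.179 FPKM in Ctrl and at 0.378 FPKM in TNF as means, Cd3e at 0.0529 and 0.487 FPKM and Cd14 at 11.8 and 20.4 FPKM, and 8 of the 9 leukocyte markers had a higher mean in TNF. Lyz2 had the lower mean in TNF (12.1 FPKM in Ctrl and 11.4 FPKM in TNF). Csf1r (0.616 and 0.662 FPKM) and Adgre1 (0.222 and 0.228 FPKM) were nearly level with overlapping groups. Cd68 (2.65 and 3.21 FPKM) did not pass (limma adjusted p = 0.283). The part of these markers in the rise of Tgfb1 was not tested. The other TGF-β genes were low: Tgfb3 was at 0.442 ± 0.123 and 0.299 ± 0.104 FPKM, and Tgfb2 at 0.0896 ± 0.0120 and 0.105 ± 0.0382 FPKM, neither of them tested.

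Gdf11 and Gdf15 also rose. Gdf11, an activin-like ligand, stood at 1.13, 1.21 and 1.59 FPKM in Ctrl 1 to 3 and at 2.30, 2.45 and 2.14 FPKM in TNF 1 to 3 (log2 difference 0.52, SE 0.10, limma adjusted p = 0.00723). Gdf15, a distant member of the family that many cells make under stress, stood at 4.82, 4.83 and 5.74 FPKM in Ctrl and at 8.67, 7.47 and 6.76 FPKM in TNF (log2 difference 0.49, SE 0.09, limma adjusted p = 0.00817). For both genes the groups did not overlap, though TNF 3 and Ctrl 3 of Gdf15 were only about 1 FPKM apart. The call for Gdf11 was lost without Ctrl 1 and TNF 3 together (adjusted p = 0.0580).

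The classical BMP ligands showed no called difference. Bmp2, made by surface epithelium, was at 6.24 ± 0.331 FPKM in Ctrl and at 6.39 ± 0.412 FPKM in TNF, and its log2 difference of 0.03 had a 95% interval of -0.11 to 0.17. Bmp7 was at 2.06, 2.13 and 1.93 FPKM in Ctrl and at 1.60, 1.64 and 1.62 FPKM in TNF; the groups did not overlap, and its adjusted p of 0.0636 did not pass. Bmp8b was at 9.41, 9.79 and 9.52 FPKM in Ctrl and at 14.2, 10.5 and 11.2 FPKM in TNF, again without overlap and with an adjusted p of 0.0718. That gene passed when TNF 2 was left out (adjusted p = 0.0427). Its close paralog Bmp8a was at 1.10 ± 0.0456 and 1.23 ± 0.282 FPKM, and no source used here says how reads shared by the pair were counted.

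The remaining ligand genes were near the floor of the measurement. Bmp4 was at 0.122 ± 0.127 FPKM in Ctrl and at 0.0693 ± 0.0176 FPKM in TNF, with its highest value in Ctrl 1 (0.262 FPKM, about 18 reads). Of the 10 mesenchymal markers, Vim, Col1a1 (4.81 FPKM), Col1a2, Lum and Acta2 (3.94 FPKM) were highest in Ctrl 1 too. Col3a1 and Pdgfra were highest in Ctrl 2, Dcn in Ctrl 3, Pdgfrb in TNF 2 and Myh11 in TNF 1. The means of these markers were lower in TNF in all but Myh11, with Pdgfrb nearly level (1.021 and 1.019 FPKM). The part of these markers in the levels of Bmp4, Tgfb3 and Grem1 was not tested. Bmp5, Bmp6, Bmp15, Gdf1, Gdf3, Gdf5, Gdf6, Gdf7, Gdf9, Gdf10 and Inhbb had means of at most 0.115 FPKM in either group, and Inhba, the activin A subunit gene, was at 0.270 ± 0.0595 and 0.157 ± 0.0799 FPKM. Of these, Gdf1 shares its whole exonic sequence with Cers1, so its values cannot be assigned.

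The 5 BMP antagonists among the members were low in both groups, and none was tested. Gremlin, encoded by Grem1, was at 0.478, 1.41 and 0.531 FPKM in Ctrl 1 to 3 and at 0.580, 0.525 and 0.652 FPKM in TNF 1 to 3. The groups overlapped, and Ctrl 2 alone was high. Bambi, a decoy receptor that lacks the kinase, was at 0.651, 0.636 and 0.506 FPKM in Ctrl and at 0.429, 0.408 and 0.495 FPKM in TNF. Here every TNF sample was below every Ctrl sample, by a narrow margin between TNF 3 and Ctrl 3. Nog, Chrd and Bmper, which encode noggin, chordin and a chordin-like regulator, did not exceed 0.126 FPKM in any sample.

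Among the type II receptors 1 gene rose and 1 fell. Tgfbr2, the type II receptor that binds TGF-β (ENSMUSG00000032440, chromosome 9, 116084293 to 116175360), stood at 24.6, 24.0 and 26.0 FPKM in Ctrl 1 to 3 and at 34.0, 32.5 and 32.9 FPKM in TNF 1 to 3. It rose 1.33-fold (log2 difference 0.40, SE 0.04, limma adjusted p = 0.000599). Acvr2a, a type II receptor shared by activins and several BMPs (ENSMUSG00000052155, chromosome 2, 48814109 to 48903269), stood at 16.6, 16.3 and 16.7 FPKM in Ctrl and at 11.5, 11.9 and 11.4 FPKM in TNF. It fell from 16.5 ± 0.198 to 11.6 ± 0.281 FPKM (log2 difference -0.48, SE 0.04, limma adjusted p = 0.000164). Of the exonic bases of Acvr2a, 7.84% overlap Orc4 on the opposite strand, a gene at 5.63 ± 0.509 and 5.95 ± 0.400 FPKM.

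The other type II receptors did not pass or were not tested. Bmpr2, the type II receptor specific to BMPs, was at 4.69 ± 0.143 and 4.88 ± 0.242 FPKM (log2 difference 0.04, 95% interval -0.08 to 0.17), and Acvr2b, not tested, at 0.872 ± 0.119 and 1.03 ± 0.133 FPKM. Summed over the 4 type II genes, the level was 46.0 to 48.4 FPKM in Ctrl and 49.9 to 51.5 FPKM in TNF. Within that sum Tgfbr2 took 53.0%, 52.1% and 53.7% in Ctrl 1 to 3 and 66.0%, 64.3% and 65.9% in TNF 1 to 3. Acvr2a took 34.5% to 35.6% in Ctrl and 22.4% to 23.6% in TNF. The shares of both genes had no overlap between groups. They were not tested apart from the genes themselves.

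**Figure D2:**
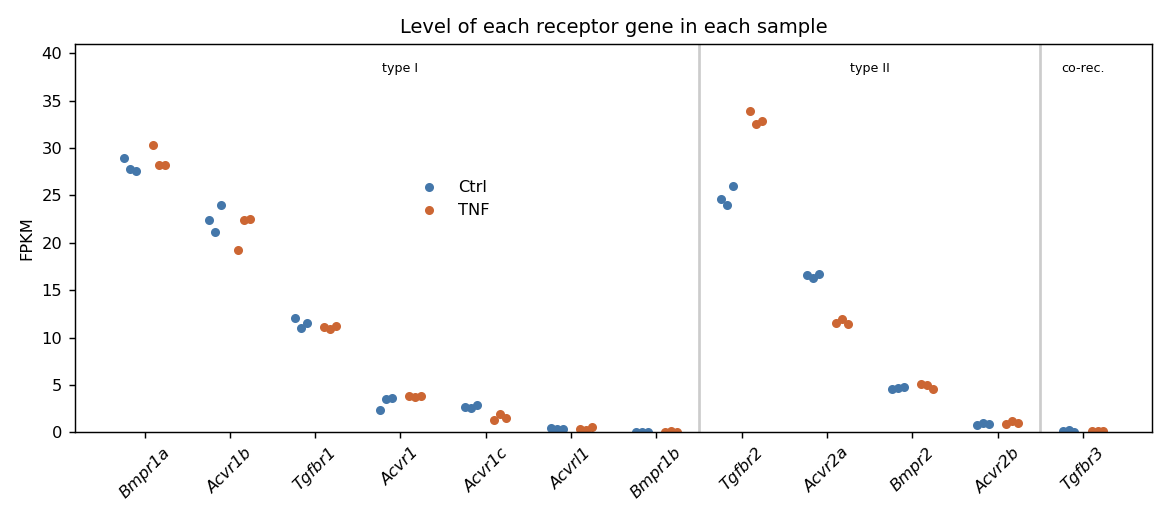
FPKM (vertical axis, from 0) of each of the 12 receptor genes in the 3 Ctrl (blue) and 3 TNF (orange) samples, with type I receptors on the left, type II receptors in the middle and the co-receptor gene Tgfbr3 on the right. Tgfbr2 is higher and Acvr2a lower in all TNF samples, while the abundant type I receptors Bmpr1a, Acvr1b and Tgfbr1 overlap between groups.

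Of the 5 tested type I receptors, which carry the signal to the Smads, Acvr1c alone was called. Bmpr1a, the main type I receptor for BMP ligands in the gut epithelium, was at 28.1 ± 0.736 and 28.9 ± 1.23 FPKM (log2 difference 0.04, 95% interval -0.07 to 0.14). Acvr1b, which serves activins, was at 22.5 ± 1.44 and 21.4 ± 1.85 FPKM (95% interval of the log2 difference -0.24 to 0.09), and Tgfbr1, the partner of Tgfbr2, at 11.5 ± 0.540 and 11.1 ± 0.185 FPKM (-0.16 to 0.06). Their adjusted p-values ran from 0.493 to 0.582, and each pair of groups overlapped. By mean level in Ctrl the order of the receptors was Bmpr1a, Tgfbr2, Acvr1b, Acvr2a, Tgfbr1, Bmpr2, Acvr1 and Acvr1c, followed by Acvr2b and Acvrl1 under 1 FPKM. In TNF Tgfbr2 stood first, with its lowest sample (32.5 FPKM) above the highest of Bmpr1a (30.4 FPKM).

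Acvr1c, a type I receptor for activin B among others, fell. It stood at 2.66, 2.58 and 2.93 FPKM in Ctrl 1 to 3 and at 1.33, 1.94 and 1.52 FPKM in TNF 1 to 3 (log2 difference -0.52, SE 0.10, limma adjusted p = 0.00781). All TNF samples were below all Ctrl samples, and the call was lost without Ctrl 1 and TNF 3 together (adjusted p = 0.0765). Acvr1 was at 2.34, 3.53 and 3.63 FPKM in Ctrl and at 3.83, 3.77 and 3.81 FPKM in TNF and did not pass (adjusted p = 0.241), with Ctrl 1 well below the other samples and no overlap between groups. Acvrl1, a receptor known mainly from endothelium, was at 0.368 ± 0.0622 and 0.388 ± 0.133 FPKM, and Bmpr1b and the co-receptor gene Tgfbr3 did not exceed 0.254 FPKM in any sample.

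To show the DNA in front of the genes that moved, the 250 bases upstream of the transcription start are printed for the TGF-β ligand, its type II receptor and the type II receptor that fell. They are RefSeq promoter windows of build GRCm38.p6, 5′ to 3′ on the strand of the gene, with capitals for matches to the motifs searched. No window for Bmp3 was used here.
Tgfb1, chr7:25686752-25687001, + strand: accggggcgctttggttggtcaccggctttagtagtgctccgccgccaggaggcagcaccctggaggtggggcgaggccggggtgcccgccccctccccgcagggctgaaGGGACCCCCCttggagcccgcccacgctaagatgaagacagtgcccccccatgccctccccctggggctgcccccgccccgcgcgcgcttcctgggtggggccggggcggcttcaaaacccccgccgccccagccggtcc
Tgfbr2, chr9:116175364-116175613, - strand: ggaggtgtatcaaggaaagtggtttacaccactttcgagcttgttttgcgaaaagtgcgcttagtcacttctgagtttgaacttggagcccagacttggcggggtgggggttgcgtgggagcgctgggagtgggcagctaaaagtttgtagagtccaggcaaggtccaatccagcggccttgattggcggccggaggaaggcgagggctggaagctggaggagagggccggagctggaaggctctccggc
Acvr2a, chr2:48813859-48814108, + strand: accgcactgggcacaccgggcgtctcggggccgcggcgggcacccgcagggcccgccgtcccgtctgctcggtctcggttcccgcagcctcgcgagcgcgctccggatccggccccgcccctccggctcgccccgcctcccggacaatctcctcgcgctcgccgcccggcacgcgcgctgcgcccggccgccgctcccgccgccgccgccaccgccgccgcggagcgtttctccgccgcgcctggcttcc
Both strands were searched for the NF-κB consensus by name, the AP-1 motif TGANTCA, the BMP-responsive Smad element GGCGCC and the Smad palindrome GTCTAGAC. The Tgfb1 window held an NF-κB consensus match, GGGACCCCCC, 140 to 131 bases before the start, a kind of match that 5% of all 32851 windows of this length held. It held none of the other motifs. The windows of Tgfbr2 and Acvr2a held none of the 4 motifs, and GC content was 75.2%, 58.4% and 82% in the order printed. AP-1 matches occurred in 6.75% of all windows, GGCGCC in 9.59% and GTCTAGAC in 0.167%. NF-κB matches also lay in windows of the members Acvr1b, Tgfbr3l and Tgfbrap1, which were not called. They lay in windows of the untested Bmper and Gdf7 too. The window of the called gene Gdf11 held none of the 4 motifs, and a window of the called gene Smad5 held the BMP-responsive Smad element. These matches describe letters and not binding.

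Of the 5 tested signal-carrying Smads, Smad5 alone was called. Smad5, which acts for BMPs, rose from 11.9, 11.4 and 12.1 FPKM in Ctrl 1 to 3 to 14.0, 13.7 and 14.3 FPKM in TNF 1 to 3 (log2 difference 0.23, SE 0.04, limma adjusted p = 0.00721). The groups did not overlap, and the call was lost without Ctrl 1 and TNF 3 together (adjusted p = 0.0877). Smad1, which does the same work, was at 6.06 ± 0.146 and 5.55 ± 0.448 FPKM (adjusted p = 0.249), and Smad9 was near 0 with 0.0407 ± 0.00579 and 0.0948 ± 0.0389 FPKM. Of the summed FPKM of these 3 genes, Smad5 took 65.6% to 66.3% in Ctrl and 69.5% to 73.1% in TNF.

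The Smads of the TGF-β and activin branch did not pass. Smad2 was at 6.83 ± 0.285 and 6.80 ± 0.258 FPKM (log2 difference -0.01, 95% interval -0.13 to 0.12) and Smad3 at 8.92 ± 0.747 and 9.67 ± 0.151 FPKM (95% interval -0.04 to 0.25). The groups of Smad3 did not overlap, by a narrow margin (9.48 FPKM in Ctrl 3 and 9.54 FPKM in TNF 2). Smad4, the shared partner, had the highest mean of the 59 members in both groups. It was at 36.9, 37.3 and 35.6 FPKM in Ctrl and at 34.4, 33.6 and 32.4 FPKM in TNF. It was lower in all TNF samples with an adjusted p of 0.0671, and it passed after quantile normalization (adjusted p = 0.0329).

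Of the feedback regulators, both Smurf genes were tested and both inhibitory Smads lay under the filter. The inhibitory Smad gene Smad6, induced by BMP signalling, was at 0.572, 0.562 and 0.728 FPKM in Ctrl 1 to 3 and at 0.421, 0.281 and 0.175 FPKM in TNF 1 to 3, or about 17 to 65 reads. The TNF samples were all below the Ctrl samples, but the gene lay under the filter. When all genes of the table were tested, 9.21% were called and Smad6 was not (log2 difference -0.33, adjusted p = 0.0835). Smad7, which blocks both branches, was at 0.930 ± 0.0735 and 1.03 ± 0.0357 FPKM with overlapping groups. The ubiquitin ligase genes Smurf1 (6.72 ± 0.590 and 7.23 ± 0.105 FPKM) and Smurf2 (15.1 ± 1.08 and 14.5 ± 0.918 FPKM) were tested and did not pass, with adjusted p-values of 0.326 and 0.585.

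Id genes are direct targets of BMP-activated Smads and encode proteins that block basic helix-loop-helix factors. None of the 3 tested passed. Id1 stood at 8.25, 11.0 and 9.06 FPKM in Ctrl 1 to 3 and at 9.71, 7.83 and 8.46 FPKM in TNF 1 to 3, with overlapping groups (log2 difference -0.11, 95% interval -0.36 to 0.14, adjusted p = 0.520). As a ratio of FPKM + 1, that interval runs from 0.780 to 1.10. Id2 stood at 2.50, 3.84 and 3.01 FPKM in Ctrl and at 4.83, 3.76 and 3.73 FPKM in TNF (log2 difference 0.32, 95% interval 0.01 to 0.62, adjusted p = 0.128). Ctrl 2 lay above TNF 2 and TNF 3 and below TNF 1, and without Ctrl 2 the gene passed (log2 difference 0.44, adjusted p = 0.0392). Id3 was at 1.55 ± 0.457 and 1.60 ± 0.253 FPKM (95% interval -0.29 to 0.36), and Id4, not tested, at 0.622 ± 0.128 and 0.913 ± 0.196 FPKM.

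The 4 Id genes summed to 12.7, 17.6 and 13.9 FPKM in Ctrl 1 to 3 and to 17.2, 14.2 and 14.5 FPKM in TNF 1 to 3, and these sums overlapped. Within them, Id1 took 62.8% to 65.1% in Ctrl and 55.2% to 58.5% in TNF, and Id2 took 19.6% to 21.9% and 25.8% to 28.1%. The share of Id1 was thus lower and that of Id2 higher in all TNF samples. These shares were not tested.

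Members that carry a pathway name but were put in none of the groups above did not pass or were not tested. The kinase gene Bmp2k was at 5.64 ± 0.172 and 5.17 ± 0.127 FPKM, with no overlap between groups (adjusted p = 0.167). Tgfbrap1, whose product associates with TGF-β receptors, was at 4.23 ± 0.426 and 4.24 ± 0.0750 FPKM (adjusted p = 0.962). Tgfbr3l was at 1.32, 1.36 and 2.65 FPKM in TNF against 1.89 ± 0.0743 FPKM in Ctrl, so that TNF 3 alone was high (adjusted p = 0.740), and 52.2% of its exonic bases overlap the gene model Gm49320 on the same strand. Bmp1, a protease that cleaves procollagen and chordin, was at 0.986 ± 0.190 and 0.871 ± 0.0178 FPKM, just under the filter, and Tgfb1i1 at 0.122 ± 0.0663 and 0.112 ± 0.0746 FPKM.

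**Figure D3:**
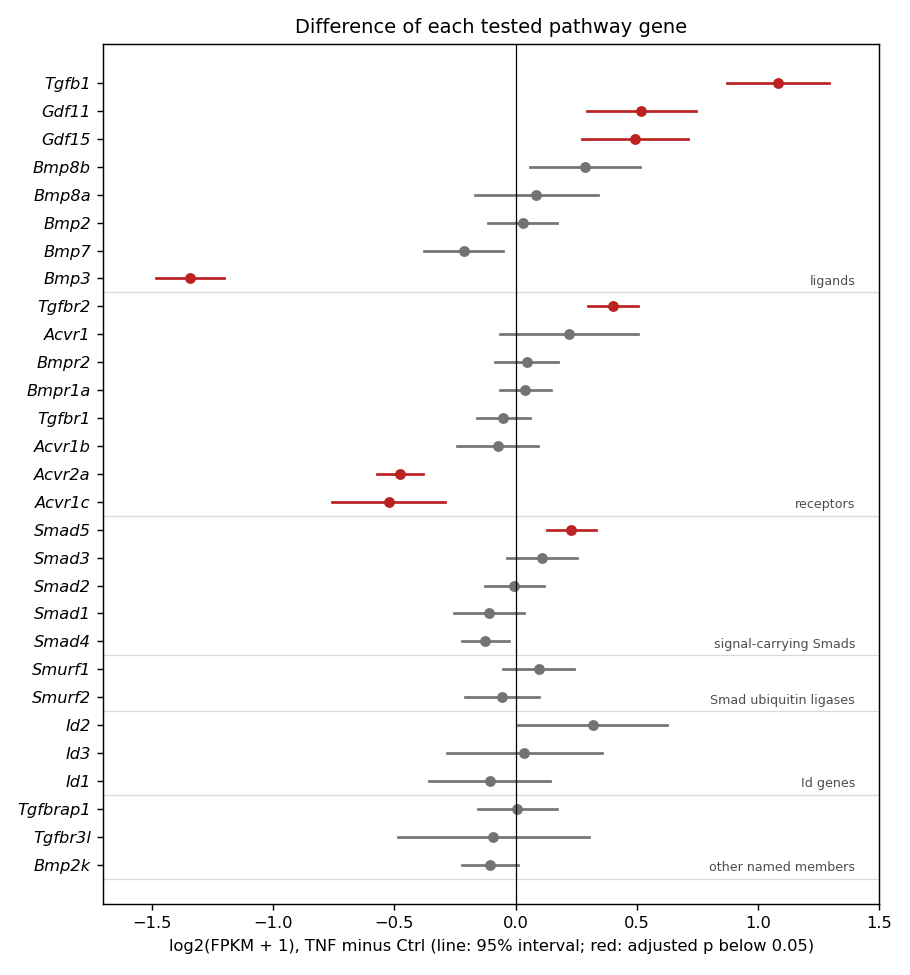
Difference of each of the 29 tested members on the log2(FPKM + 1) scale (horizontal axis, TNF minus Ctrl), grouped by role, with the 95% interval from limma as a line. The 8 red points passed an adjusted p below 0.05, from Bmp3 at -1.34 to Tgfb1 at 1.08, and the Id genes and Smad ubiquitin ligases are all grey.

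Other genes of the pathway were taken from 4 lists with 92 names, of which 83 were in the table and 45 were tested. Of these, 8 rose, 9 fell and 28 did not pass, a called share of 37.8% against 24.0% of all tested genes, with a median log2 difference of -0.01. Of all tested genes 12.9% rose and 11.1% fell. The lists were chosen with earlier results of these data known, so their called share cannot show an excess. Over all settings 8 to 18 genes of the lists were called, beside 1413 to 3023 genes in all. Outside the cell, 3 of 5 tested regulators rose and none fell (median 0.51). The 3 that rose included both subunits of the integrin αvβ6, which releases TGF-β from its latent complex in epithelia. Itgb6 stood at 2.97, 3.23 and 3.19 FPKM in Ctrl 1 to 3 and at 7.77, 7.33 and 6.96 FPKM in TNF 1 to 3 (log2 difference 1.02, limma adjusted p = 2.83e-05). Itgav stood at 5.09, 5.93 and 5.54 FPKM in Ctrl and at 8.89, 7.95 and 8.00 FPKM in TNF (log2 difference 0.51, limma adjusted p = 0.00140). For both subunits all TNF samples were above all Ctrl samples.

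The BMP antagonist gene Nbl1 rose from 3.20 ± 0.771 to 5.14 ± 0.607 FPKM (limma adjusted p = 0.0232), a call that was lost without TNF 1 (0.0777) or TNF 3 (0.0558), with the replicate number as a block (0.0532) without Ctrl 1 and TNF 3 together (0.0697) and without the filter on low values (0.0860). Crim1 (11.6 ± 0.465 and 12.5 ± 0.378 FPKM) and Twsg1 (13.8 ± 0.770 and 14.6 ± 1.01 FPKM) did not pass. Another 17 regulators in the table, among them the follistatin gene Fst and the latent TGF-β binding protein genes Ltbp1 to Ltbp4, had means under 1 FPKM.

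The BMP co-receptor gene Rgmb and Neo1, which encodes neogenin, a receptor of the RGM proteins, both fell. They were the only tested genes of the list of other ligands and co-receptors. Rgmb stood at 16.5, 13.7 and 16.3 FPKM in Ctrl 1 to 3 and at 12.1, 10.9 and 11.0 FPKM in TNF 1 to 3 (log2 difference -0.42, limma adjusted p = 0.00614), and its call was lost without Ctrl 1 and TNF 3 together (adjusted p = 0.0758). Neo1 stood at 22.1, 21.4 and 22.5 FPKM in Ctrl and at 17.9, 18.2 and 18.4 FPKM in TNF (log2 difference -0.26, limma adjusted p = 0.00278). Neither gene's groups overlapped.

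Of 27 tested intracellular regulators, 3 rose, 5 fell and 19 did not pass. Their called share of 29.6% stood near the 24.0% of all tested genes, and their median was -0.02. Fkbp1a, whose product holds type I receptors inactive, rose from 33.6 ± 2.60 to 42.8 ± 1.54 FPKM, and the Smad corepressor gene Tgif1 from 12.3 ± 0.155 to 14.5 ± 0.674 FPKM. The corepressor gene Ski fell from 14.9 ± 0.743 to 12.3 ± 0.622 FPKM, Ctdsp2, which encodes a phosphatase that acts on Smads, from 31.6 ± 0.728 to 25.4 ± 0.608 FPKM, Xiap from 22.0 ± 0.466 to 19.3 ± 0.252 FPKM and the ubiquitin ligase gene Wwp1 from 33.5 ± 2.25 to 26.8 ± 2.16 FPKM. The log2 differences of these 6 ran from -0.31 for Wwp1 to 0.34 for Fkbp1a, with limma adjusted p-values of 0.00147 to 0.0158. The call for Wwp1 was lost without Ctrl 1 (0.0522), TNF 1 (0.0532) or TNF 3 (0.0523) and without the filter (0.0553), and those for Wwp1, Xiap and Tgif1 were lost without Ctrl 1 and TNF 3 together (0.135, 0.136 and 0.0586). Strap (44.8 ± 1.54 and 44.4 ± 2.40 FPKM) and Tab2 (29.8 ± 0.915 and 28.8 ± 0.744 FPKM) did not pass. The other called genes of the list were Ctdsp1, which fell, and Pmepa1, which rose, both named here after their values were seen. Ctdsp1 went from 23.6 ± 1.03 to 20.0 ± 1.21 FPKM (adjusted p = 0.0217), and its call was lost without Ctrl 1 (0.0772), Ctrl 3 (0.0541), TNF 1 (0.0723) or TNF 2 (0.0726), without Ctrl 1 and TNF 3 together (0.0573) and without the filter (0.0547). Pmepa1 went from 1.62 ± 0.122 to 2.33 ± 0.260 FPKM (adjusted p = 0.0227), and its call was lost without Ctrl 1 (0.0744), Ctrl 2 (0.0522) or TNF 1 (0.0709), without Ctrl 1 and TNF 3 together (0.122), with the replicate block (0.0633) and without the filter (0.0665).

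Among 11 tested target genes, Junb and Thbs1 rose, Tsc22d1 and Cdkn2b fell and 7 did not pass. Their called share was 36.4%, beside 24.0% of all tested genes, and their median was -0.005. Junb, an AP-1 factor gene that TGF-β and TNF can both induce, stood at 20.6, 25.4 and 23.2 FPKM in Ctrl 1 to 3 and at 40.2, 36.9 and 38.2 FPKM in TNF 1 to 3 (log2 difference 0.72, limma adjusted p = 0.000444). Thbs1, which encodes thrombospondin, a matrix protein that can activate latent TGF-β, rose from 19.9 ± 0.280 to 25.2 ± 0.544 FPKM (adjusted p = 0.000829). Tsc22d1 fell from 22.9 ± 0.382 to 18.8 ± 0.912 FPKM (adjusted p = 0.00476, and 0.0627 without Ctrl 1 and TNF 3 together). Cdkn2b, a cell cycle inhibitor gene induced by TGF-β, went from 10.3 ± 1.03 to 8.57 ± 0.290 FPKM (adjusted p = 0.0457). That call was lost on leaving out Ctrl 2, Ctrl 3, TNF 1, TNF 2 or TNF 3 (0.0840 to 0.131) and without both Ctrl 1 and TNF 3 (0.0776), without the filter (0.112), with median-ratio scaling (0.0511), with a constant prior variance (0.0616) and with the replicate block (0.0908). Cdkn1a, a cell cycle inhibitor gene (27.2 ± 1.59 and 29.5 ± 1.45 FPKM), and Bhlhe40 (33.9 ± 4.26 and 36.6 ± 2.14 FPKM) did not pass.

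**Figure D4:**
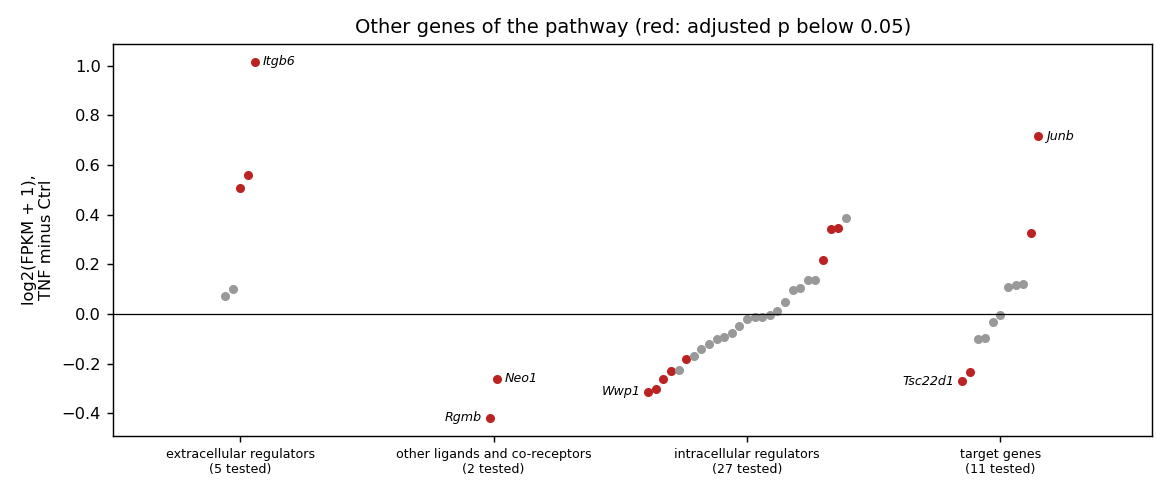
Difference on the log2(FPKM + 1) scale (vertical axis, TNF minus Ctrl) of the 45 tested pathway genes outside the named members, by list and ordered within each list. Red points passed an adjusted p below 0.05, with Itgb6 at 1.02 and Junb at 0.72 the highest called genes of their lists and Rgmb at -0.42 the lowest called gene of all 4.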

How the data were processed

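RNA was measured in 6 samples, 3 per group. The deposited table is called normalized counts by its name. Its values, times exonic length, sum to 9.59e+08 to 9.64e+08 per library, so they were treated as FPKM computed by the authors. Per the submitters' processing notes, cutadapt (version 1.9) and FastQC were used with GRCm38. The aligner, counting program, strandedness and annotation release are not given in the sources used here. Lengths and positions came from GENCODE M21 (29844 genes matched). Values of single-exon genes gave the depth, taking the lower of the 2 commonest low values as 1 read. Of these low values, 15.5% to 18.3% stood at 1 read and 16.0% to 18.7% at 2 reads. The upper value was taken as a pair of reads, so numbers of reads may overstate numbers of fragments.

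Genes averaging 1 FPKM or more were compared on log2(FPKM + 1) by limma (version 3.58.1, R 4.3.3) with a mean-dependent prior, two-sided, with Benjamini-Hochberg adjustment over all tested genes and a threshold of 0.05. The procedure was tried on simulated data with independent samples, in which only more abundant genes were changed. That trial does not bear on calls of low genes such as Tgfb1, Gdf11 and Acvr1c, nor on technical replicates. A count test was not run, since values did not come in whole reads. Members and lists were chosen with earlier results of these data known. Named were all tested members, untested members at 0.3 FPKM or more, and of each other list up to 6 called genes with the smallest p and the 2 highest that were not called. Exons of 19 members overlap another gene. Of the members, 41 have a RefSeq promoter entry; of the 8 called genes 7 have one and 4 have exactly 1.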

Additional observations from a re-analysis of the deposited data

How the results depend on the processing

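All 8 called members kept their call and direction with pseudocounts of 0.1 and 5, without the filter on low values, with quantile or median-ratio scaling, with a constant prior variance, with the replicate number as a block and without any 1 sample. With a filter at a mean of 5 FPKM, 18 members were tested and 5 were called, 3 of them higher, beside 2197 of 7628 genes (28.8%), since Tgfb1, Gdf11 and Acvr1c are then not tested. Quantile normalization gave 5 lower members, with Smad4 and Bmp7 added, and Bmp7 also passed with a constant prior variance (adjusted p = 0.0185). Leaving out 1 sample gave 8 to 9 called members, 5 to 6 higher and 3 lower, 13 to 16 other pathway genes, and 2087 to 2622 genes in all, 1134 to 1447 higher and 910 to 1175 lower. The lowest counts of all called and of lower genes came without Ctrl 1, and those of higher and of other pathway genes without TNF 1. Without both Ctrl 1 and TNF 3, counts were 1413 genes (817 higher, 596 lower), 5 members (3 higher) and 8 other pathway genes, with 2 samples a group.

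The size of a difference on the log2 scale depends on the pseudocount for low genes: over all settings Tgfb1 ran from 0.43 to 1.69, Gdf11 from 0.21 to 0.78, Gdf15 from 0.32 to 0.57, Acvr1c from -0.75 to -0.23, Bmp3 from -1.48 to -0.96, Itgb6 from 0.60 to 1.21, Itgav from 0.34 to 0.58, Nbl1 from 0.31 to 0.69 and Pmepa1 from 0.15 to 0.50. Leaving out 1 sample turned the sign of genes near 0 that were never called: Bmp2 ran from -0.0146 to 0.0645, Id3 from -0.0504 to 0.178, Smad2 from -0.0358 to 0.0120, Tgfbrap1 from -0.0528 to 0.0650, Bmp8a from -0.0150 to 0.156, Tgfbr3l from -0.305 to 0.0214 and Strap from -0.0461 to 0.0296, and Strap was at 0.00954 without Ctrl 1 and TNF 3. The labels do not say whether the replicate numbers pair the samples. Same-numbered samples' deviations from their group means correlated at -0.0043, -0.101 and 0.0053, which with 3 samples a group cannot settle it. With the number as a block, 8 members, 14 other pathway genes and 2260 genes in all were called; among the named genes, the calls for Nbl1, Cdkn2b and Pmepa1 were lost. Members under 1 FPKM rest on few reads, such as 17 to 65 for Smad6, and were not tested.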

Other observations

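Some members are neighbours on the genome; differences between neighbours were not tested. Acvr1c (chromosome 2, 58267453 to 58357895) fell, and Acvr1, 31 kb away, had a log2 difference of 0.22 that did not pass. Acvrl1 and Acvr1b lie 29 kb apart on chromosome 15 at 0.368 and 22.5 FPKM in Ctrl; Acvr1b did not pass and Acvrl1 was not tested. Bmp8b and Bmp8a lie 181 kb apart on chromosome 4, with log2 differences of 0.29 and 0.08, neither called. Smad3 and Smad6 lie 195 kb apart on chromosome 9, where Smad3 was tested and did not pass and Smad6 was under the filter. Of the 30 members that were not tested, 5 (Smad6, Bambi, Smad9, Gdf10 and Bmpr1b) had groups that did not overlap, where 15.9% of all genes under that level did not.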
